A study of Mus musculus with 15 samples.

Results

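43 lysosomal genes were followed in RNA sequencing of the mouse retinal pigment epithelium (RPE) and choroid: 11 peptidases, 13 glycan and glycosaminoglycan hydrolases, 4 lipid hydrolases, 2 precursors of enzyme activators and growth factors, 6 lysosomal membrane proteins, 6 genes of the proton pump and the transcription factor Tfeb. They are a list of named genes matched by symbol among the 40481 genes of the count table. The list was made by function and not by a measured value, but with earlier results of these data known. All 43 were found, and all 43 passed the filter on low counts, which left 17991 genes. Libraries came from the RPE/choroid complex of mice of 2 groups. The 7 control libraries came from Abca1/Abcg1 flox/flox LysM-Cre mice and the 8 INK-ATTAC libraries from Abca1/Abcg1 flox/flox LysM-Cre mice that also carried INK-ATTAC. LysM-Cre places the recombinase under the lysozyme M promoter, which is active in myeloid cells, so both groups carry floxed alleles of the cholesterol transporters Abca1 and Abcg1 with Cre in macrophages and related cells. INK-ATTAC is a transgene in which the INK4a promoter drives a fusion of FKBP and caspase 8, and the ligand AP20187 dimerizes the fusion and kills the cells that make it. Every library of both groups is labelled as given AP20187 by intraperitoneal injection. The design text gives a schedule for the INK-ATTAC mice, an injection every other day for 3 months. Ages, and whether each library is a separate animal, are not stated in the sources used here, so p-values measure the spread between these libraries, which may be partly technical. The comparison asks how the RPE/choroid of mice with subretinal drusenoid deposits differs once p16-expressing cells have been targeted for removal.

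Lysosomes are acidic organelles that digest material taken up or recycled by the cell. RPE cells engulf the shed tips of photoreceptor outer segments every day, so their lysosomes handle a heavy load of protein, glycan and lipid. The vacuolar proton pump (V-ATPase) acidifies the lumen, the acid hydrolases work there, heavily glycosylated membrane proteins line the wall, and Tfeb switches on many of these genes by binding a palindromic E-box element in their promoters.

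Libraries held 39121503 to 65065950 counts. The 43 genes together took 2.73% ± 0.214 (SD, n = 7) of the counts in control and 2.65% ± 0.159 (SD, n = 8) in INK-ATTAC libraries, and in single libraries 2.46% to 3.02%. Each gene had at least 361 counts in every library. The 10 RPE markers, among them Rpe65 and Rlbp1, were detected in every library, with a summed level of 64840 to 97110 CPM, read counts scaled to a common library size. Macrophage, endothelial, fibroblast, rod and skeletal muscle markers were detected in every library too, so the libraries are a mixture of cell types. In such bulk samples, fewer cells of a type and less RNA per cell cannot be told apart. Cdkn2a, the gene of p16, had 0 to 2 counts in control and 0 to 4 in INK-ATTAC libraries, too few for a test. The sources used here do not say whether the authors' counts use strand. If they do not, the reads of overlapping genes cannot be told apart, and 18 of the 43 genes overlap another annotated gene, 6 of them a gene on the same strand. Ctsd is one of the 6.

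The E-box element is shown first because it is the sequence through which Tfeb is known to act on this gene class. Windows from 250 bases before to 50 bases after the start site were available from RefSeq (GRCm38.p6) for 38 of the 43 genes. The 8-base palindrome TCACGTGA was searched on both strands, together with its 6-base core CACGTG, which every 8-base match contains. It was present in 7 of the 38 genes, Atp6v0d1, Atp6v1a, Cln3, Ctsa, Ctsd, Gla and Mcoln1, and in 15.6% of the 45 windows of these genes, against 1.56% of 15738 windows of the other genes tested and 0.974% of all 32851 windows. The core was present in 31.1% of the windows of the lysosomal genes, against 9.07% of those of the other genes tested and 7.15% of all windows. Gla and Ctsa each held the 8-base element at 2 places, and Lamp1 held 4 copies of the core but not the longer form. These are matches of letters and do not show binding. The element was chosen because it is known from this gene class, so its higher share here is a description and not a test. The windows compared were not matched in GC content. For 5 genes the sequence around a match is given 5′ to 3′ on the strand of the gene, with the 8-base element in capitals.
Gla, chrX:134601153-134601240, minus strand, 194 bases before the start: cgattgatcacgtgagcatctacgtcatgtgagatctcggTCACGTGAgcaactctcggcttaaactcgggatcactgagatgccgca
Ctsd, chr7:142387879-142387966, minus strand, 98 bases before the start: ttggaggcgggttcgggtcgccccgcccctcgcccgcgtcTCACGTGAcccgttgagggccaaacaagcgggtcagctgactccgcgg
Mcoln1, chr8:3500433-3500518, plus strand, 45 bases before the start: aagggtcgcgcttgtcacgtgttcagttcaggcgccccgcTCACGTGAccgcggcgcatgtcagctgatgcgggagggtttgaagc
Atp6v1a, chr16:44139344-44139431, minus strand, 131 bases before the start: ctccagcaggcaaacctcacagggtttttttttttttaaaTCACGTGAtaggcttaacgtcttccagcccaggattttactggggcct
Cln3, chr7:126583311-126583398, minus strand, 121 bases before the start: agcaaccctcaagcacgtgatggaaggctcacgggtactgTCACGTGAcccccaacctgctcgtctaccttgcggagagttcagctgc

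The lysosomal genes spanned a wide range of levels, compared here as CPM per kb of exon length and averaged over the 15 libraries. Ctsd, the aspartic protease cathepsin D that degrades much of the outer segment protein in RPE, was the highest at 3264 ± 329 (SD, n = 15), and ranked 11 among the 17991 genes tested. Psap, the precursor of the saposins that help hydrolases reach sphingolipids, followed at 1396 ± 193. The cysteine protease cathepsin B (Ctsb) stood at 795 ± 71.5, the tetraspanin Cd63 of late endosomes at 688 ± 44.4 and cathepsin Z (Ctsz) at 450 ± 60.1. In the plot of levels by library Psap lies above Ctsb and Cd63 in each library, while Ctsb and Cd63 overlap. Atp6ap1 (234 ± 12.2) and Atp6v0c (190 ± 21), an accessory subunit and the proteolipid ring subunit of the V-ATPase, Hexa (142 ± 15.1), a subunit of the hexosaminidase that clears gangliosides, and Atp6ap2 (116 ± 9.15), the pump's other accessory subunit, complete the 9 genes over 100 CPM per kb.

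**Figure D1:**
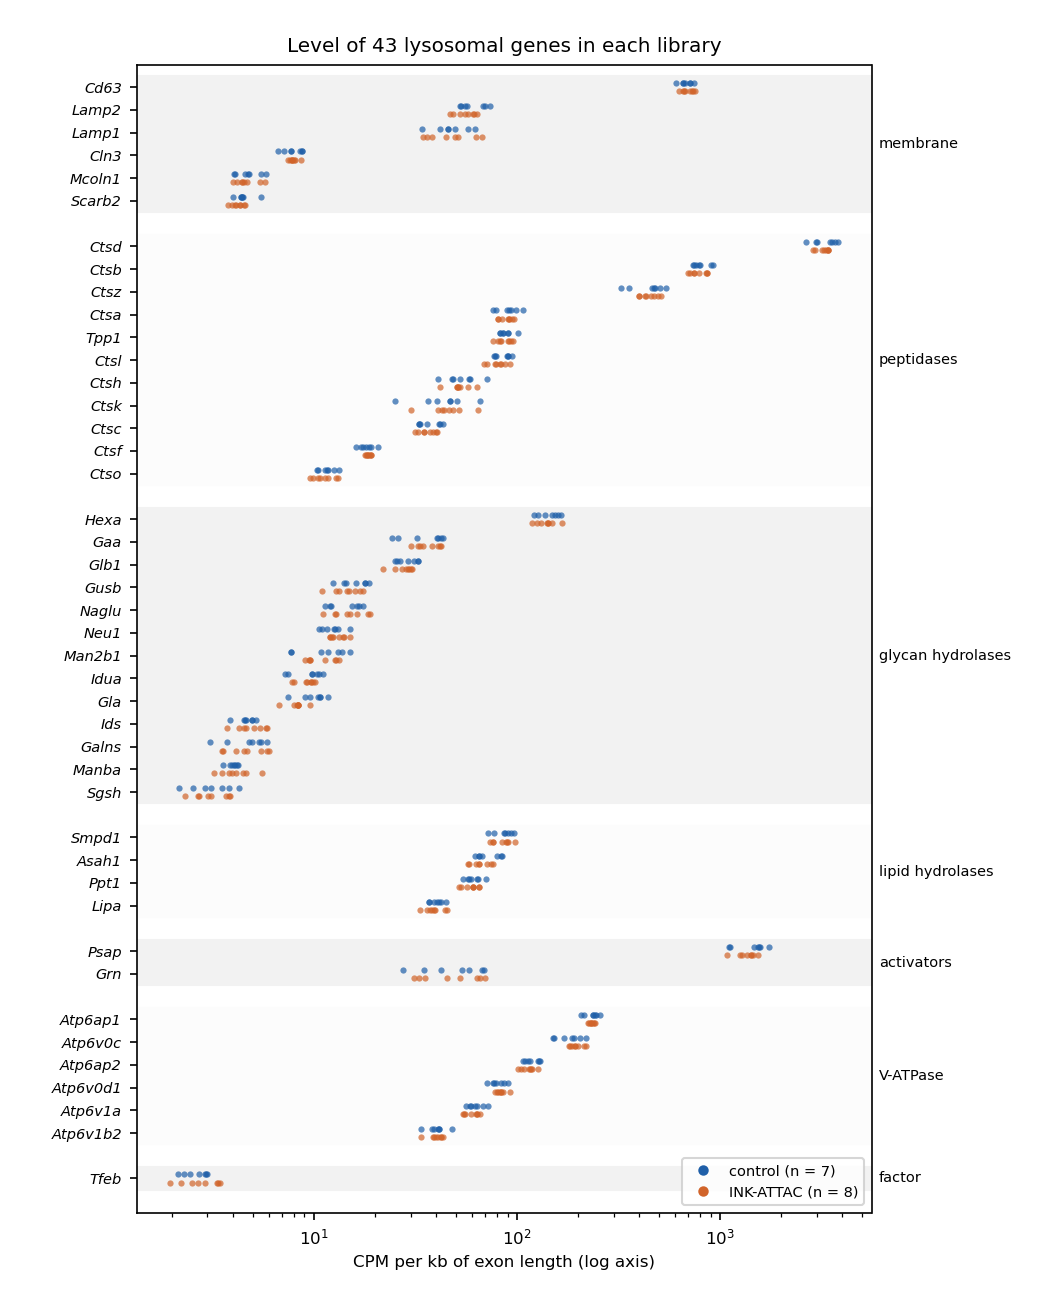
Level of each of the 43 genes in each library, as CPM per kb of exon length on a log axis, grouped by role. Each point is 1 library, blue for the 7 control and orange for the 8 INK-ATTAC libraries. Ctsd is highest at a mean of 3264 and Tfeb lowest at 2.73, and for each gene the 2 colours overlap.

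At the low end, 10 genes were under 10 CPM per kb. Tfeb was the lowest, at 2.73 ± 0.465 CPM per kb, followed by a sulfatase of heparan sulfate breakdown, Sgsh (3.18 ± 0.632), and the beta-mannosidase Manba (4.09 ± 0.541). The membrane genes Scarb2 (4.36 ± 0.394), which carries glucocerebrosidase to the lysosome, and Mcoln1 (4.74 ± 0.614), a calcium channel, were in the same range, and their SDs overlap that of Manba. The other low genes were Galns, Ids, Cln3, Gla and Idua, 4 of them enzymes of glycan or glycosaminoglycan breakdown. The lysosomal wall proteins Lamp2 (58.5 ± 7.85) and Lamp1 (48.1 ± 10.6) lay between.

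Steadiness across libraries differed among the genes. The SD within groups was under 10% of the mean for 16 genes and over 20% for 6. Atp6ap1 was steadiest at 5.41%, followed by cathepsin F (Ctsf) at 5.88%, and Cd63 stood at 6.62%. Grn, the precursor of the granulins, was the most variable at 31.6%, and its highest library was 2.53 times its lowest. Ctsk, the collagen-degrading cathepsin K, followed at 24.9% and a span of 2.64 times, then Lamp1 at 22.9%. The median over the 43 genes was 10.8%, beside 12.7% over the 9410 genes with a mean log2 CPM above 3.

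Between INK-ATTAC and control libraries, none of the 43 genes passed the adjusted threshold of 0.05 in edgeR's quasi-likelihood test with Benjamini-Hochberg adjustment over all genes. The test called 0% of all 17991 genes. At an unadjusted p under 0.05, 1 of the 43 was lower and none was higher in INK-ATTAC libraries, beside 4.14% of all genes tested. Their log2 fold changes were below 0 for 31 of 43, beside 50.2% of all genes tested and 54.6% of those with a mean log2 CPM above 3. The median log2 fold change was -0.03, beside -0.00097 over all genes, and the values ran from -0.27 to 0.11. Both depended on single libraries: leaving out 1 at a time gave 23 to 34 genes below 0 and a median of -0.062 to -0.0046, with 23 and -0.0046 without control 7, 34 and -0.062 without control 5, and a median of -0.047 without control 4 and -0.018 without INK-ATTAC 6. For each of the 43 the 2 groups of libraries overlapped, as they did for all but 0.0222% of genes. The 95% interval of the fold change lay within 1.2-fold in either direction for 26 of the 43 and within 1.5-fold for all 43. Of the 9410 genes with a mean log2 CPM above 3, 4262 lay within 1.2-fold and 8965 within 1.5-fold. A change of over 1.5-fold lies outside the interval of each gene, and smaller ones remained within it.

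**Figure D2:**
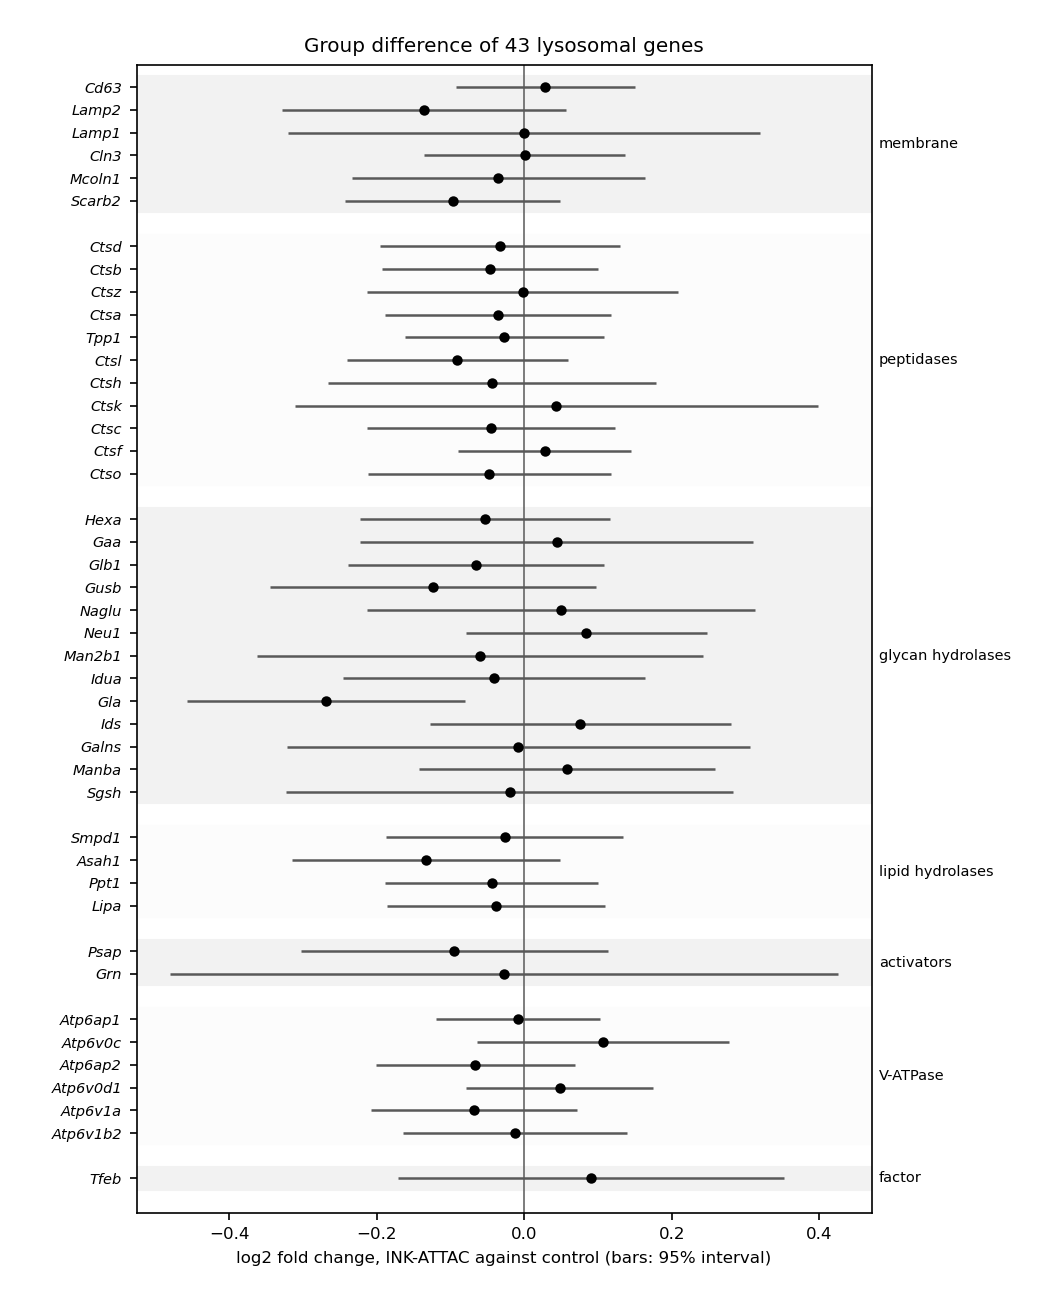
Log2 fold change of INK-ATTAC against control for each of the 43 genes (points) with its 95% interval (bars), from edgeR, grouped by role and ordered by level. Gla at -0.27 is the only gene whose interval leaves out 0, and its adjusted p is 1.00.

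Gla (ENSMUSG00000031266, GRCm38 chrX:134588149-134601125, minus strand) encodes alpha-galactosidase A, which removes galactose from globotriaosylceramide. Its levels in control libraries were 35.1, 31.3, 24.4, 34.2, 38.2, 29.4 and 35.1 CPM (lowest 24.4, median 34.2, highest 38.2). In INK-ATTAC libraries they were 27.1, 27.4, 27.5, 27.3, 22.1, 26.0, 27.2 and 31.3 CPM (lowest 22.1, median 27.3, highest 31.3). The INK-ATTAC libraries lie close together, with 7 of 8 at or below 27.5 CPM, and 6 of 7 controls lie above that value, but control 3 falls among the INK-ATTAC libraries and the groups overlap. The edgeR log2 fold change was -0.27 (SE 0.09, 95% interval -0.46 to -0.08, unadjusted p = 0.00786, adjusted p = 1.00). These levels rest on 1080 to 2161 counts per library. In the authors' deposited table the log2 fold change of Gla was -0.24 with a p of 0.0145 and an adjusted p of 0.701.

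The other glycan hydrolases gave no gene at an unadjusted p under 0.05. Of the 13, 8 were below 0 and 5 above in edgeR's fit. Hexa, the highest of them, was at 290 ± 32.3 CPM (SD, n = 7) in control and 279 ± 29.4 (SD, n = 8) in INK-ATTAC libraries, a log2 fold change of -0.05 (SE 0.08, interval -0.22 to 0.12). The spread within each group was wider than this difference. Gusb, the beta-glucuronidase, had -0.12 (interval -0.35 to 0.10), and Neu1, the sialidase, 0.08 (interval -0.08 to 0.25).

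Among the peptidases, 9 of 11 were below 0 and none passed. Ctsd ranged from 6209 to 8972 CPM in control libraries (median 8174) and from 6756 to 8043 in INK-ATTAC libraries (median 7762), so the INK-ATTAC range lies inside that of the controls. Its log2 fold change was -0.03 (SE 0.08, interval -0.20 to 0.13). Ctsl, the cysteine protease cathepsin L, had the lowest p of the class in edgeR's fit (unadjusted p = 0.219, adjusted p = 1.00). It ranged from 502 to 612 CPM in control (median 583) and from 447 to 600 in INK-ATTAC libraries (median 525), with a log2 fold change of -0.09 (interval -0.24 to 0.06). Ctsk was at 67.5 ± 19.3 CPM (SD, n = 7) and 69.6 ± 14.7 (SD, n = 8), and its interval, -0.31 to 0.40, was the widest of the peptidases.

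All 4 lipid hydrolases and both activator precursors were below 0, and none reached an unadjusted p of 0.05. Asah1, the acid ceramidase, ranged from 212 to 288 CPM in control libraries (median 229) and from 195 to 258 in INK-ATTAC libraries (median 220). The groups overlap over most of their range, and the log2 fold change was -0.13 (SE 0.09, interval -0.32 to 0.05, edgeR unadjusted p = 0.14). Smpd1, the acid sphingomyelinase and the highest of the class per length, was at 288 ± 28.8 CPM (SD, n = 7) and 282 ± 28.0 (SD, n = 8). Psap ranged from 3047 to 4801 CPM in control (median 4202) and from 2972 to 4238 in INK-ATTAC libraries (median 3800), with a log2 fold change of -0.09 (SE 0.10, interval -0.30 to 0.11). Grn had the widest interval of the 43 genes, -0.48 to 0.43.

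Of the membrane proteins, Lamp2 had the lowest p in edgeR's fit (unadjusted p = 0.155). It ranged from 500.4 to 703 CPM in control libraries (median 545) and from 446 to 611 in INK-ATTAC libraries (median 539), with a log2 fold change of -0.14 (SE 0.09, interval -0.33 to 0.06). The medians are close, and the distance between the means comes with 3 controls that lie above every INK-ATTAC library. Lamp1, its close relative, had equal means of 129 CPM (SD 25.5, n = 7, and 32.5, n = 8). Cd63 was at 2506 ± 169 (SD, n = 7) and 2557 ± 166 CPM (SD, n = 8), a log2 fold change of 0.03 (interval -0.09 to 0.15).

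The V-ATPase genes split into 4 below and 2 above 0. Atp6v0c ranged from 508 to 743 CPM in control libraries (median 633) and from 615 to 744 in INK-ATTAC libraries (median 653), and its log2 fold change of 0.11 (SE 0.08, interval -0.06 to 0.28) was the highest of the 43. The control libraries reach as high as the INK-ATTAC libraries, and 3 of them lie lower. Atp6ap1 had the narrowest interval, -0.12 to 0.10 around -0.01. Tfeb ranged from 12.1 to 16.9 CPM in control (median 15.5) and from 11.1 to 19.7 in INK-ATTAC libraries (median 15.8), with a log2 fold change of 0.09 (SE 0.12, interval -0.17 to 0.35). The INK-ATTAC libraries enclose the whole control range.

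**Figure D3:**
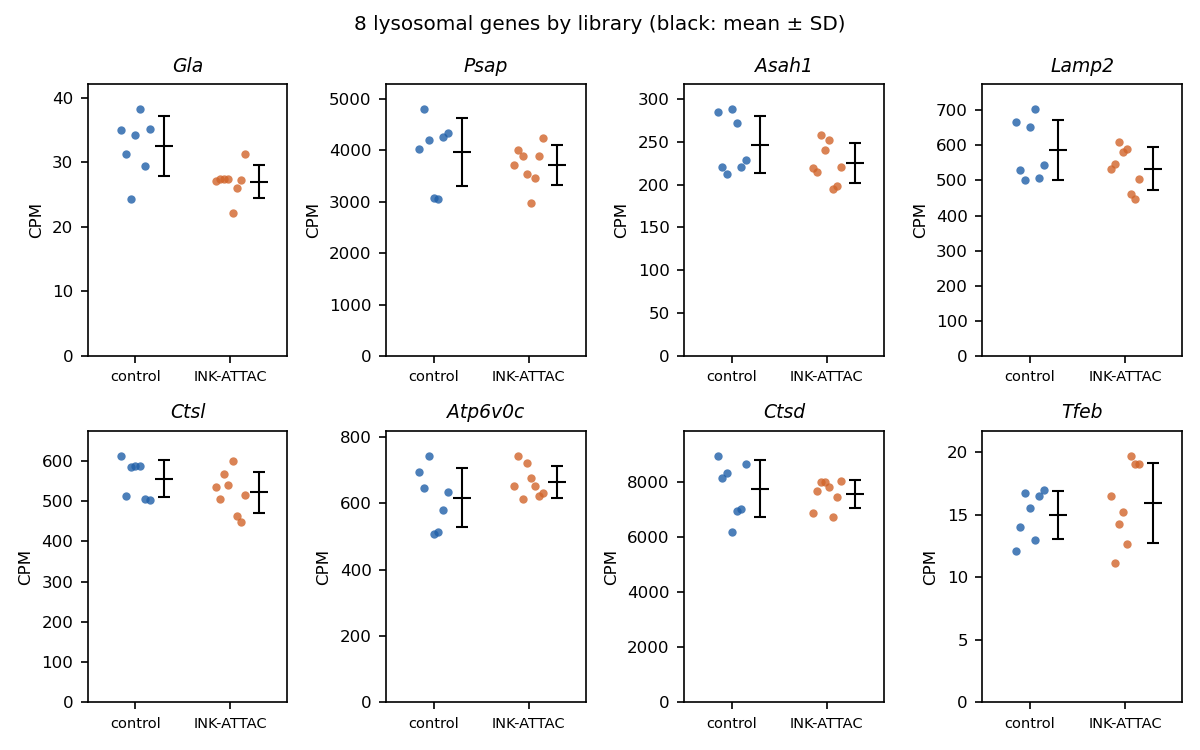
CPM of 8 genes in each library (points; blue, 7 control libraries; orange, 8 INK-ATTAC libraries), with mean ± SD in black and each axis from 0. In Gla 7 of 8 INK-ATTAC libraries lie at or below 27.5 CPM and 4 of 7 controls lie above all of them, while in the other 7 genes the groups lie over each other.

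Skeletal muscle markers, from a tissue outside the RPE and choroid, had a higher mean in INK-ATTAC libraries, which did not pass once adjusted over the marker lists. All 10 were detected in every library. Their summed level was 282 to 2635 CPM in control (median 1173) and 684 to 3764 CPM in INK-ATTAC libraries (median 2545), and their mean log2 CPM was 1.08 higher in INK-ATTAC libraries (two-sided exact permutation test, p = 0.048, adjusted over 7 marker lists 0.215). Lens markers were at 20.9 to 47.4 CPM in control and 19.5 to 294 CPM in INK-ATTAC libraries, with Crygb, Crygc, Crygd, Lim2 and Mip at 0 in some libraries. With the muscle level as a covariate in edgeR, 20 of the 43 genes were below 0 in place of 31. In that fit 5 had an unadjusted p under 0.05 (Lamp2, Ctsh, Ctsl, Gla and Asah1, all lower), with an adjusted p of 0.837 for each. The shares of all genes below 0 and at that p in the same fit are not given here. Whether the muscle content accounts for the share of the 43 genes below 0 was not tested beyond that fit. The macrophage list differed by -0.03 log2 CPM between the groups and the RPE list by 0.0013.

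The authors' deposited table lists all 43 genes. It holds 0 of them at an adjusted p under 0.05, beside 0.0208% of its 14442 genes, and 1, Gla, at a p under 0.05, beside 6.42%. Of the 43 fold changes in the authors' deposited table, 32 are below 0, with a median of -0.05 beside -0.0043 over its genes.

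Other genes of the pathway were read from 6 further lists in the same edgeR fit, and none passed the adjusted threshold. The list of 24 other hydrolases and related lysosomal proteins had 21 below 0, beside 50.2% of all genes tested. Its median log2 fold change was -0.03. The 22 other lysosomal membrane proteins had 12 below 0, the 14 other V-ATPase subunits that were tested 8, and the 9 genes of mannose 6-phosphate tagging and sorting 5. The mTORC1 arm holds Tfeb in the cytoplasm. Of the 17 relatives of Tfeb and genes of this arm, 1 had an unadjusted p under 0.05, beside 4.14% of all genes tested. That gene was Mitf, a relative of Tfeb and a master regulator of pigment cells, at 158 ± 23.3 CPM (SD, n = 7) in control and 125 ± 16.2 (SD, n = 8) with INK-ATTAC (log2 fold change -0.33, SE 0.10, edgeR unadjusted p = 0.0026, adjusted p = 1.00). Mitf ranged from 135 to 190 CPM in control and from 115 to 162 CPM in INK-ATTAC libraries, so the groups overlap. Mtor, the kinase itself, had 0.11 (interval -0.03 to 0.24).

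The cystatins block cysteine cathepsins, and 1 of the 4 tested had an unadjusted p under 0.05, beside 4.14% of all genes tested. Cst7, made mostly by immune cells, was at 1.23 to 6.94 CPM in control (median 2.91) and 1.16 to 3.66 CPM in INK-ATTAC libraries (median 1.58), with a log2 fold change of -0.89 (SE 0.34, edgeR unadjusted p = 0.0167, adjusted p = 1.00). The INK-ATTAC range lies in the lower part of the control range. Cst3, the abundant secreted cystatin C, was at 16752 ± 2209 CPM (SD, n = 7) and 18516 ± 2210 CPM (SD, n = 8), a log2 fold change of 0.14 (interval -0.04 to 0.33). Intervals that include 0 were also found for Sort1 (-0.33 to 0.08) and Igf2r (-0.45 to 0.12), which sort hydrolases, for the carboxypeptidase Scpep1 (-0.21 to 0.02), for the sialic acid exporter Slc17a5 (-0.32 to 0.03), for Tmem192 (-0.03 to 0.26) and for the pump subunits Atp6v1f (-0.03 to 0.21) and Atp6v1c1 (-0.27 to 0.05).

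Lamp2, Gla, Ids, Atp6ap1 and Atp6ap2 lie on the X chromosome, so the libraries were also divided by Xist, the RNA of the inactive X. Libraries with Xist CPM above the summed CPM of the Y-linked Ddx3y, Eif2s3y, Kdm5d and Uty were called high Xist, the others low Xist. There were 8 of high and 7 of low Xist (4 and 3 controls, 4 and 4 INK-ATTAC). Between these classes edgeR called 0.178% of all genes and none of the 43, with 0.321 the lowest adjusted p among them. At an unadjusted p under 0.05 were Smpd1 (-0.19, SE 0.06) and Atp6v0c (-0.19, SE 0.07), both lower with high Xist, beside 10.3% of all genes. The X-linked members had 0.17 (Ids, interval -0.02 to 0.36), 0.06 (Gla), 0.0031 (Atp6ap2), -0.06 (Lamp2) and -0.08 (Atp6ap1, interval -0.19 to 0.02). A difference of the group effect between the classes was called for 0% of genes. It had an unadjusted p under 0.05 for 3 of the 43 (Mcoln1, Galns and Lamp1), beside 4.77% of all genes, with an adjusted p of 0.876 for each.

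The levels of many of the lysosomal genes varied along the base composition of the transcripts, and some did so within each group. For each library a GC tilt was computed as the mean centred log2 CPM of 2248 GC-rich protein-coding genes (over 53.97% GC) minus that of 2248 GC-poor ones (under 44.76% GC), with the 43 genes left out. It ranged from -0.49 in control 5 and -0.35 in control 4 to 0.25 in control 3, and its mean was -0.07 ± 0.28 (SD, n = 7) in control and 0.06 ± 0.13 (SD, n = 8) in INK-ATTAC libraries (two-sided exact permutation test, p = 0.288). With p adjusted over all 17991 genes tested (100000 permutations), 20 of the 43 genes were correlated with the tilt at an adjusted p under 0.05, 12 positively and 8 negatively. That is 46.5%, beside 19.9% of all genes and 19.3% of the 4781 other genes above 3 log2 CPM that lie outside the GC ranges from which the tilt was built. Of the 43, 16 lie above the GC-rich cut and 9 below the GC-poor cut. Neither comparison set is matched to the 43 in both level and GC content, and no share of such genes is given here. Adjusted over the 43 tests alone, 25 passed, 15 positively and 10 negatively. All 25 had the same sign of r within control and within INK-ATTAC libraries, but they were picked by r over these same libraries. Of all 43 genes, 33 had the same sign in both groups. Adjusted over the 43 tests, 16 of the 43 passed within controls alone, and 13 within INK-ATTAC libraries alone. Only Lamp2, Asah1, Ctsc, Mcoln1, Grn and Naglu passed in both. The shares of all genes that pass within each group are not given here, so these counts have no background.

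On the negative side were Lamp2, with r = -0.91 (rho -0.94, permutation p = 1e-05 for both, the smallest that these permutations give, adjusted permutation p over all genes 0.000878), Asah1 (-0.87), Ctsc, the dipeptidyl peptidase cathepsin C (-0.86), and Atp6ap2 (-0.84). On the positive side were the acid alpha-glucosidase Gaa (0.86), the heparan sulfate enzyme Naglu (0.85) and Grn (0.82). Lamp2 stood at 653 and 703 CPM in controls 4 and 5, among the highest of the 15 libraries, and Gaa at 124 and 116 CPM and Grn at 122 and 95.3 CPM there, among the lowest. Without the 2 libraries farthest from the median tilt, controls 4 and 5, r was -0.89 for Lamp2, -0.85 for Asah1, 0.63 for Gaa, 0.89 for Naglu and 0.76 for Grn, and adjusted over the 43 tests 13 passed in place of 25. Gla had r = -0.51 with the tilt over all libraries (permutation p = 0.0527), -0.77 within controls and 0.51 within INK-ATTAC libraries, and -0.08 without those 2 controls. With the tilt as a covariate in edgeR the log2 fold change of Gla was -0.22 (unadjusted p = 0.0234, adjusted p = 0.735).

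**Figure D4:**
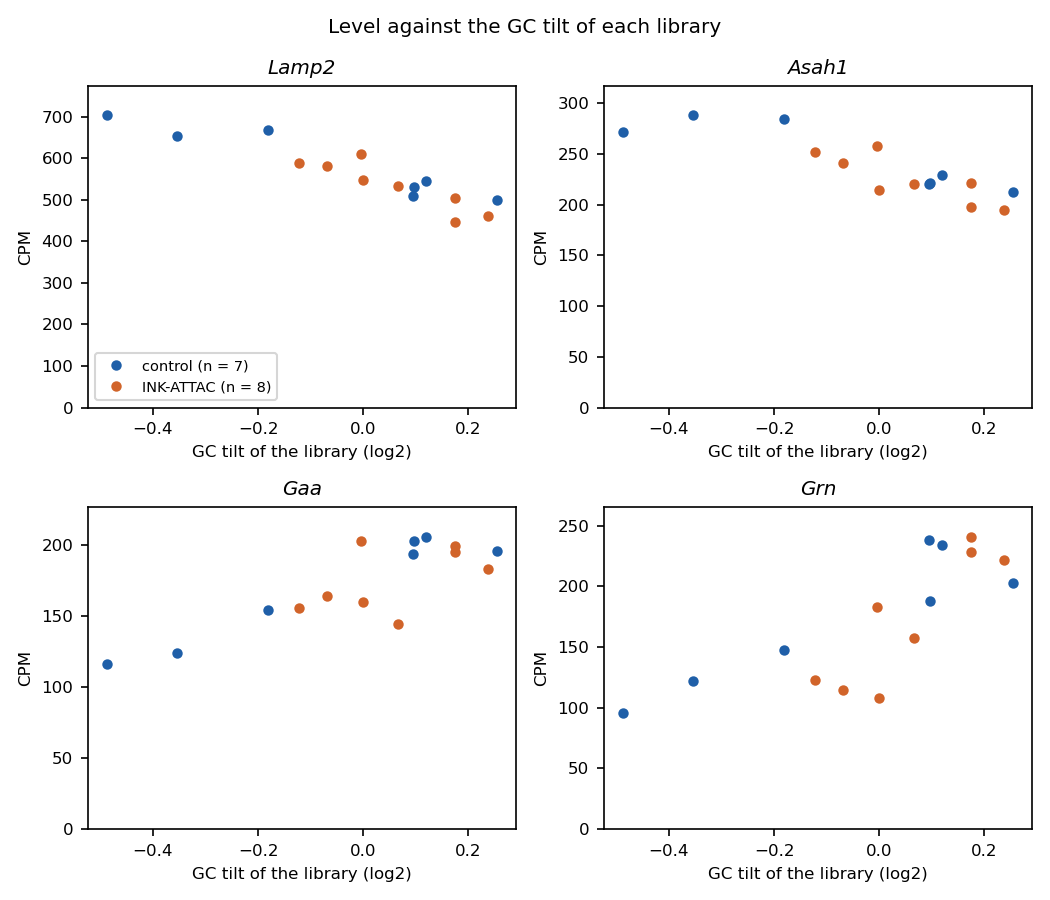
CPM of Lamp2, Asah1, Gaa and Grn in each library against its GC tilt (log2). Points are libraries, blue for 7 control and orange for 8 INK-ATTAC. Lamp2 and Asah1 are higher and Gaa and Grn lower in the libraries of low tilt, with r of -0.91, -0.87, 0.86 and 0.82.

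Across the 43 genes, the GC content of the longest transcript and r with the tilt had a Pearson correlation of 0.716, a description over genes that share the same 15 libraries. The same correlation over other genes is fixed in part by how the tilt was built. The median of the absolute r was 0.637 for the 43 genes and 0.479 for the 9281 other genes with a mean log2 CPM above 3. By role, and adjusted over the 43 tests, the 7 glycan hydrolases that passed, both activator precursors and Tfeb were positive. The 3 V-ATPase and 2 lipid hydrolase genes that passed were negative. Membrane proteins (3 positive, 1 negative) and peptidases (2 and 4) were mixed. The roles were not matched in GC content, and the share of all genes with this adjustment is not given here. Lipa (42.2% GC, r = 0.36) and Ids (41.4%, r = 0.22) were GC-poor with r above 0, and Cd63 (58.1%, r = -0.36) and Smpd1 (55.7%, r = -0.36) GC-rich with r below 0, none of them past the threshold.

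**Figure D5:**
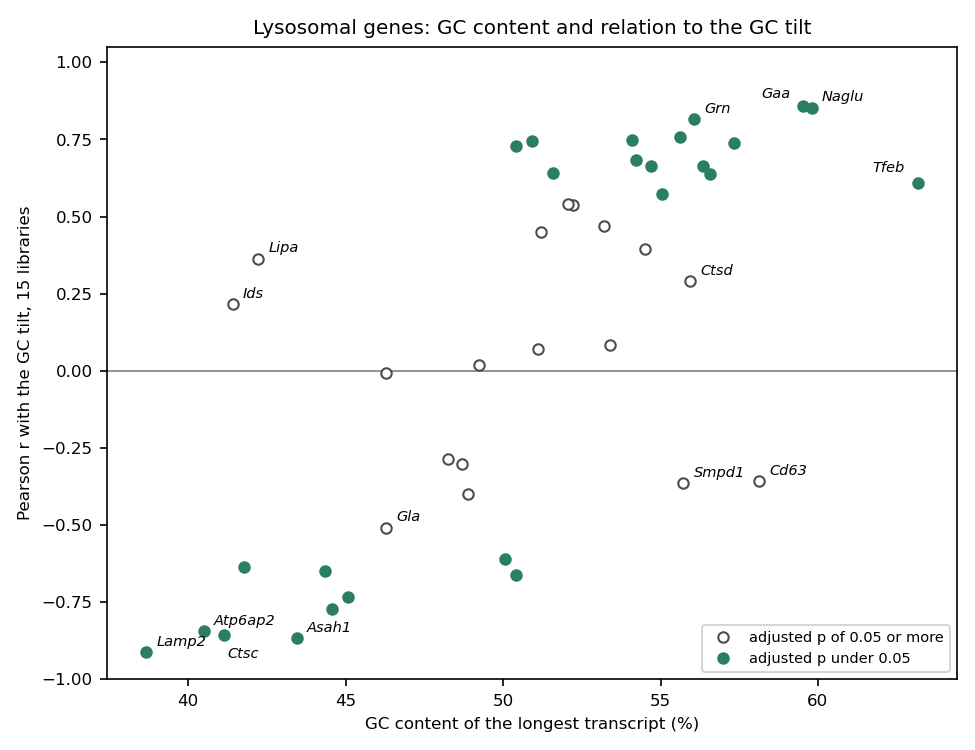
Pearson r of each gene's level with the GC tilt over 15 libraries (vertical) against the GC content of its longest transcript in % (horizontal). Each point is 1 of the 43 genes, filled for the 25 with an adjusted p under 0.05 over the 43 tests. Lamp2 lies at the lower left and Gaa and Naglu at the upper right.

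As examples from these extremes, 120 bases from the middle of the longest annotated coding sequence (GENCODE, GRCm38) are given, with G and C in capitals. They come from 2 genes of the negative side and from Gaa. Whether base composition accounts for the correlations was not tested. The coding sequence as a whole is 42.4% GC in Lamp2 and 42.8% in Asah1, against 59.2% in Gaa. The Lamp2 stretch, at 52.5%, is richer than its whole coding sequence.
Lamp2, chromosome X, coding bases 565 to 684: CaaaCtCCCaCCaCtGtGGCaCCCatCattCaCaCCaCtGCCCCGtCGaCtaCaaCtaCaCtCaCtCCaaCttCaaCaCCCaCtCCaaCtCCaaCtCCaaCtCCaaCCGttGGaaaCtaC
Asah1, chromosome 8, coding bases 532 to 651: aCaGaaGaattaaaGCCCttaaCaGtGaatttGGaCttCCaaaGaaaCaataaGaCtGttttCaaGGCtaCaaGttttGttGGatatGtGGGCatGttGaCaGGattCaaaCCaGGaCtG
Gaa, chromosome 11, coding bases 1372 to 1491: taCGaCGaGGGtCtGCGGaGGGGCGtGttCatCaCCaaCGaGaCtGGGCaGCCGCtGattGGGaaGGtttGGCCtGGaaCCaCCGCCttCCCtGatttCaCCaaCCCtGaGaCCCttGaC

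The tilt itself was higher in libraries with more counts (r = 0.743, permutation p = 0.00186, adjusted over 7 measures 0.013; rho 0.789, permutation p = 0.00068; r = 0.654 without the 2 libraries farthest from the median). Its r was 0.607 with the endothelial level (permutation p = 0.0163, adjusted p = 0.057) and 0.528 with the fibroblast level (permutation p = 0.0416, adjusted p = 0.0971), which did not pass once adjusted. Against the macrophage, RPE, rod and muscle levels r was 0.12, -0.17, -0.22 and -0.16. Without the 2 libraries farthest from the median r was 0.673 with the endothelial, 0.614 with the fibroblast and -0.606 with the rod level, and 0.27, -0.10 and -0.02 with the macrophage, RPE and muscle levels. Which of these the lysosomal genes follow was not tested beyond the correlations given here.

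Each of the 43 genes was compared over the 15 libraries with 6 marker lists (258 pairs, 100000 permutations). With p adjusted over all pairs of all genes tested, 11 pairs passed, or 4.26%, beside 2.86% of the pairs of all genes with the same lists. Of the 43 genes, 6 passed with the endothelial level (14% beside 8.05% of all genes), 4 with fibroblast (9.3% beside 5.37%) and 1 with muscle (2.33% beside 1.53%). None passed with RPE, rod or macrophage markers, beside 1.47%, 0.628% and 0.0834% of all genes. Adjusted over the 258 pairs alone, 20 pairs passed, 11 with endothelial, 6 with fibroblast, 2 with muscle and 1 with RPE markers. The 8 pairs of lowest p, described next, passed with either adjustment. Tfeb followed the fibroblast level (r = 0.90, permutation p = 1e-05, the smallest these permutations give, and rho 0.89, permutation p = 3e-05). Cd63 ran against the endothelial level (r = -0.86, permutation p = 4e-05) and the fibroblast level (r = -0.78). Gusb (0.84) and Grn (0.81) followed the endothelial level, Grn also the fibroblast level (0.80), and Atp6v1a, a catalytic subunit of the pump, ran against the fibroblast (-0.80) and endothelial levels (-0.77). Of these 8 pairs, 7 passed with Spearman's rho, and 5 without the 2 libraries farthest from the median marker level. The exceptions there were Grn (0.74) and Cd63 (-0.69) with the fibroblast and Atp6v1a (-0.67) with the endothelial level, the last of which also missed with rho (-0.64). These lists share libraries, depth and GC tilt with the genes. With the tilt regressed out of both levels, and p adjusted over the 258 pairs, 5 pairs passed, 4 of them among the 20. Of the 8 pairs described, Tfeb with fibroblast and Cd63 and Gusb with endothelial markers passed then. The other 5 did not, with adjusted permutation p of 0.0807 for Grn and 0.168 for Atp6v1a with endothelial markers, and 0.0609 for Atp6v1a, 0.0571 for Grn and 0.0571 for Cd63 with fibroblast markers. Within the control or the INK-ATTAC libraries alone none passed at these group sizes.

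Cd63 had r = 0.72 with RPE markers (adjusted permutation p over all genes 0.0662, and r = 0.56 without the 2 libraries farthest from the median), and Ctsk had r = 0.71 with muscle markers (adjusted permutation p over all genes 0.0648, and r = 0.47 without 2 libraries), so neither passed. Cd63 had r = 0.67 with the muscle level, which missed the threshold, and -0.18 with the macrophage and -0.03 with the rod level. Ctsd, the most abundant member, followed none of the lists: r was 0.30 with RPE, -0.30 with fibroblast, 0.13 with macrophage, -0.12 with muscle, -0.02 with endothelial and -0.0093 with rod markers. Ctsk had r = -0.51 with endothelial, 0.21 with rod, 0.16 with macrophage, 0.05 with fibroblast and 0.05 with RPE markers, none past the threshold.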

How the data were processed

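Column-purified RNA was turned into SMARTer cDNA libraries, per the labels' protocols. The submitters' processing notes name bcl2fastq, DRAGEN, edgeR, limma and GRCm38, and no source used here states versions, the counting program or the annotation. The authors deposited raw read counts per gene; 276 repeated entries were collapsed. The authors also deposited a comparison table with, per the file headers, log2 CPM, log2 fold change, p-value, adjusted p-value and the limma t and B scores, and only its fold changes and p-values were used.

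Counts were scaled with TMM and filtered with filterByExpr in edgeR 4.0.16 (R 4.3.3), and INK-ATTAC was tested against control by quasi-likelihood, two-sided, with no covariate. Lengths, positions and GC content came from a GENCODE annotation of GRCm38. Correlations used numpy 2.4.6. Their p was adjusted over the members' own tests and, added after seeing the data, over all genes tested. DESeq2 1.42.0, limma 3.58.1 (voom), sva 3.50.0, other filters and scalings, covariates and leaving out each library were alternatives. The test code was tested on simulated data.

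The genes and lists were chosen with earlier results of these data known. The GC tilt and the fits that use it, or leave out controls 4 and 5, were chosen after seeing the data. Full statistics went to members at unadjusted p under 0.05, to the lowest p and highest level per role and to Tfeb; the 2 genes of lowest p in each other list, the 8 correlation pairs of lowest p, and Ctsk, Ctsd and Cd63 with each list were named. A gene of the other lists and a coding sequence that these rules would name are not reported here. No library repeated another of its group. SMARTer reads carry no molecular identifiers here, so counts include amplified copies.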

Additional observations from a re-analysis of the deposited data

Results flagged for a closer look

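In 3 of 102 groups of libraries 1 library lay far from the rest of its group, fewer than the 1 in 20 that chance gives. Scarb2 was at 5.12 log2 CPM in control 7, with the next control at 4.81. Tpp1, the tripeptidyl peptidase, was at 9.04 log2 CPM in control 1, with the next control at 8.87. Atp6v1b2, a subunit of the pump, was at 7.48 log2 CPM in INK-ATTAC 7, with the next library at 7.68.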

How the results depend on the processing

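None of the 43 genes passed the adjusted threshold under any of the 34 alternative settings, among them the main fit read at a threshold of 0.1. The fold change of Gla stayed below 0 in all of these settings (-0.33 to -0.20). Over all genes, the count past the threshold was 8 with DESeq2, 2 with limma-voom and quality weights, and 1 with a surrogate variable, with the GC tilt as covariate, without controls 4 and 5, and with both together, in place of 0. Members at an unadjusted p under 0.05 numbered 5 with the muscle level as covariate and 3 with the lens level. They numbered 3 with the surrogate variable, 3 with the GC tilt, 3 without controls 4 and 5 and 4 with both, in place of 1. The share of all genes at that p in each of these fits is not given here. Leaving out 1 library at a time gave 23 to 34 members below 0 and a median of -0.062 to -0.0046. With the muscle covariate 20 members were below 0 and their median was 0.026. That covariate also turned the log2 fold change of Hexa to 0.061, Cd63 to -0.047 and Igf2r to 0.033; the lens covariate turned Cd63 to -0.00082 and the GC tilt turned Tfeb to -0.0050. Leaving out 1 library at a time gave -0.069 to 0.0020 for Smpd1, -0.00027 to 0.049 for Cd63 and -0.044 to 0.0052 for Atp6ap1. For Xist class the log2 fold change was 0.090 for Lamp2 in controls alone, -0.031 for Gla and -0.014 for Atp6ap2 in INK-ATTAC libraries alone and -0.015 for Atp6ap2 with the GC tilt; leaving out 1 library gave -0.0040 to 0.11 for Gla and -0.023 to 0.030 for Atp6ap2. The causes were not tested.

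A replicate block was fitted on the numbers in the titles and on those in the descriptions, though the numbers did not pair the libraries: the correlation of same-numbered libraries' deviations was -0.101 to 0.292 and -0.151 to 0.231. With the replicate block 0 genes were called, 1 member had an unadjusted p under 0.05, and 32 and 30 were below 0.

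With p adjusted over the members' own tests, and without the 2 libraries farthest from the median, 12 marker pairs passed in place of 20 and 13 members against the GC tilt in place of 25; with the tilt regressed out 5 pairs passed. With p adjusted over all genes tested, 11 pairs and 20 members passed. Uncalled correlations that changed sign were Ctsk with RPE (-0.10 in controls, -0.030 without 2 libraries, -0.024 with the tilt removed) and fibroblast markers (rho -0.075, -0.043 in INK-ATTAC), and Ctsd with macrophage (-0.26 in INK-ATTAC, -0.036 without 2), rod (0.14 in INK-ATTAC, 0.059 with the tilt removed), muscle (0.24 without 2) and endothelial markers (rho 0.15, 0.014 in INK-ATTAC, 0.27 without 2). Cd63 with rod markers gave rho 0.23, 0.55 in controls and 0.38 without 2, and Gla with the GC tilt 0.51 in INK-ATTAC. By CPM not divided by length, Ctsb ranked 2, Psap 3 and Ctsz 6 among the members, in place of 3, 2 and 5 per kb.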
